A study of Zea mays with 12 samples.

Results

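The gene dzs18 encodes the 18-kDa delta zein of maize, and its transcript was followed here through every probe set that the array annotation assigns to it. It is 1 of the 1108 genes that the annotation names, and 4 of the 17734 probe sets in the table belong to it: Zm.9008.2.A1_a_at, Zm.9008.1.A1_at, Zm.9008.1.A1_x_at and Zm.9008.2.S1_at (gene ID 541921). All 4 passed the filter on dim signal. Endosperm was measured 13 days after pollination on 12 Affymetrix arrays, 3 for each of 4 genotypes. These were the hybrids B73xMo17 and Mo17xB73 and their inbred parents B73 and Mo17, all grown in the field, with no treatment or transgene named. Each array held RNA pooled from 6 ears, and the number of endosperms taken per ear is given as 6 in one label and as 5 in another. The replicate number is a crossing date, per the labels: all 4 genotypes were pollinated close together on each of 3 dates. The labels do not say which parent was the female, and by maize custom the one written first is taken as such. By its title the study asked about non-additive and imprinted expression, which the reciprocal hybrids address through opposite parental dosage.

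Zeins are the main storage proteins of the maize kernel. They are made in the starchy endosperm on the rough endoplasmic reticulum and packed into protein bodies, with gamma zeins toward the outside and alpha and delta zeins inside. Delta zeins are rich in methionine, an amino acid that maize grain is short of, so dzs18 bears on the nutritional value of the kernel. Endosperm is triploid: the mother gives 2 genome copies and the father 1. An allele that is silent in one parent is therefore present in 2 active copies of 3 in one reciprocal hybrid and in 1 of 3 in the other.

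Levels below are MAS5 signal, a linear intensity summarised over the probes of a probe set, after scaling of the arrays to equal medians. Signal under 15.1, the pooled 20th percentile, was raised to that floor. Levels are compared only between arrays within a probe set, since probe sets differ in how brightly they read the same RNA. The gene was chosen by its signal differences between genotypes in these same data, so its levels are given as a description and no genotype contrast of it was tested. The arrays number 3 per genotype, which limits the precision of every value. In pooled tissue, fewer zein-producing cells and less transcript per cell cannot be told apart.

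Transcript of dzs18 was high in B73 endosperm and near the floor in Mo17 endosperm. In the probe set with the highest signal, Zm.9008.2.A1_a_at, B73 endosperm read 17333, 17082 and 16556 on dates 1, 2 and 3. Mo17 endosperm read 26.3 on date 2 and lay at the floor on dates 1 and 3. The B73 level, with a geometric mean of 16987, was at least 933-fold that of Mo17, a log2 difference of 9.87 ± 0.46 (SD over 3 dates). On the B73 arrays this probe set had between 85.5% and 95.0% of the signal of the brightest probe set present. On the B73xMo17 arrays it had between 78.2% and 96.5%. Whether signal so near the top of the range still follows transcript in proportion was not tested.

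The other probe sets of dzs18 gave the same order, with Mo17 readings that differed in how near they came to the floor. Zm.9008.1.A1_at read 14846, 14919 and 15002 in B73, against 55.8, 96.8 and 88.5 in Mo17. Zm.9008.1.A1_x_at read 14238, 12878 and 14148 in B73, against 16.8, 21.9 and 36.8 in Mo17. These amount to 191-fold and 576-fold, and the log2 differences were 7.58 ± 0.42 and 9.17 ± 0.57 (SD, n = 3 dates). The dimmest, Zm.9008.2.S1_at, read 266, 197 and 301 in B73, against 29.4, 22.6 and 40.3 in Mo17, which is 8.40-fold (log2 3.07 ± 0.15). The arrays of the inbreds did not overlap in any of the 4 probe sets. Signal depends on the match between probe and transcript, and the sequences of the probes and of the Mo17 allele were not used here, so how far the low Mo17 reading reflects transcript was not tested.

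**Figure D1:**
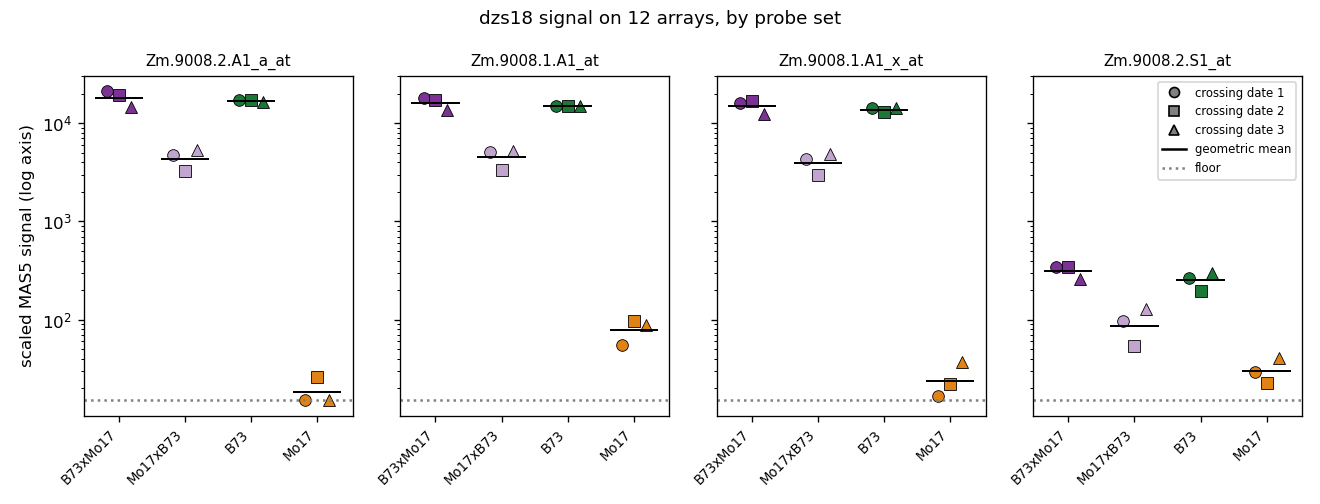
Scaled MAS5 signal (log axis) of the 4 dzs18 probe sets on each of the 12 arrays, by genotype; marker shape gives the crossing date, the bar is the geometric mean of 3 arrays and the dotted line is the floor at 15.1. In every panel B73xMo17 and B73 overlap, Mo17xB73 lies below both, and Mo17 is lowest.

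In the hybrids, dzs18 was high with B73 as mother and lower with Mo17 as mother. Zm.9008.2.A1_a_at read 21055, 19445 and 14612 in B73xMo17 endosperm. It read 4762, 3237 and 5343 in Mo17xB73 endosperm. All B73xMo17 arrays lay above all Mo17xB73 arrays, and the geometric means of 18153 and 4351 differ by 4.17-fold (log2 2.06 ± 0.57, SD over 3 dates). By date, the log2 difference was 2.14, 2.59 and 1.45, so its size varied between dates while its direction did not.

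Zm.9008.1.A1_at read 18014, 17253 and 13618 in B73xMo17, against 5141, 3374 and 5230.3 in Mo17xB73. Zm.9008.1.A1_x_at read 16136, 16669 and 12401 in B73xMo17, against 4283, 2955 and 4843 in Mo17xB73. Zm.9008.2.S1_at read 342, 345 and 261 in B73xMo17, against 96.4, 54.3 and 127 in Mo17xB73. The hybrids did not overlap in these probe sets either. Their log2 differences were 1.85 ± 0.49, 1.92 ± 0.57 and 1.85 ± 0.81 (SD over 3 dates), or 3.60-fold, 3.79-fold and 3.59-fold. The probe sets therefore agree on the size of the gap between the hybrids, although they differ widely on the gap between the inbreds.

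The order of the genotypes was B73xMo17 and B73 at the top, then Mo17xB73, then Mo17. The neighbours at the top do not differ beyond their spread: B73xMo17 minus B73 was 0.10 ± 0.24 on the log2 scale for Zm.9008.2.A1_a_at (SD over 3 dates), with 0.28, 0.19 and -0.18 on the single dates. The arrays of B73xMo17 and B73 overlapped in all 4 probe sets. Mo17xB73 lay below B73 by a log2 difference of -1.97 ± 0.39 in Zm.9008.2.A1_a_at, and by -1.73, -1.80 and -1.53 in the others, without overlap. Mo17xB73 in turn was at least 239-fold above Mo17 in Zm.9008.2.A1_a_at, and 57.5-fold, 165-fold and 2.92-fold above it in the others, also without overlap.

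Set against B73 on the same date, the hybrids show how far each lay from its dosage. For Zm.9008.2.A1_a_at, B73xMo17 endosperm held 121%, 114% and 88.3% of the B73 signal on dates 1, 2 and 3, a mean of 107.9% ± 17.4 (SD, n = 3 dates). Mo17xB73 held 27.5%, 19.0% and 32.3%, a mean of 26.2% ± 6.7. With the Mo17 allele contributing almost nothing, 2 active copies of 3 would give 66.7% and 1 of 3 would give 33.3%. In this probe set after scaling, B73xMo17 was above its dosage share on all 3 dates, and Mo17xB73 was below its own on all 3. In the other probe sets Mo17xB73 lay on both sides of 33.3%, with 34.6%, 22.6% and 34.9% on the dates in Zm.9008.1.A1_at.

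The other probe sets placed B73xMo17 at 109% ± 16.3, 110.1% ± 21.1 and 130.0% ± 44.0 of B73 (SD over 3 dates; Zm.9008.1.A1_at, Zm.9008.1.A1_x_at and Zm.9008.2.S1_at). They placed Mo17xB73 at 30.7% ± 7.0, 29.1% ± 5.7 and 35.3% ± 7.4. Relative to its parents averaged by their genome copies (mother 2, father 1), B73xMo17 stood at log2 0.68 ± 0.24, 0.70 ± 0.22, 0.70 ± 0.29 and 0.82 ± 0.51, with Zm.9008.2.A1_a_at first and Zm.9008.2.S1_at last. Mo17xB73 stood at -0.38 ± 0.39, -0.16 ± 0.36, -0.22 ± 0.29 and -0.25 ± 0.29. In Zm.9008.2.S1_at it stood at -0.17, -0.58 and -0.004 on the single dates. Mo17 read 11.9% of B73 in that probe set, so the shares of 66.7% and 33.3% are too low for it. The distance of Mo17xB73 from its weighted parents is thus within its SD over dates, while that of B73xMo17 exceeds it in each probe set. The sum over both hybrids exceeded the sum over both parents by log2 0.42 ± 0.15 in Zm.9008.2.A1_a_at after scaling and by 0.26 ± 0.22 on the deposited scale, where date 2 stood at 0.01 (SD over 3 dates).

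Brightness of the arrays moves with this comparison. The B73xMo17 arrays of dates 1 and 2 were dim and were multiplied by 1.24 and 1.29, against 0.886 to 1.06 for the other 10 arrays. On the deposited scale, without these factors, B73xMo17 held 93.6% ± 9.4 of the B73 signal in Zm.9008.2.A1_a_at, with 98.3%, 82.8% and 99.7% on the dates. It held 94.9%, 94.9% and 109.7% in the other probe sets. The log2 difference of B73xMo17 minus B73 turned to -0.10, -0.08 and -0.08 in the 3 bright probe sets on that scale and stayed positive, at 0.12, in Zm.9008.2.S1_at. On the array that was not dim, that of date 3, B73xMo17 held 88.3% of B73 scaled and 99.7% deposited. The gap between the hybrids on the deposited scale was log2 1.82, 1.61, 1.68 and 1.61. On both scales and all dates, then, B73xMo17 read above 66.7% of B73 and above every Mo17xB73 array.

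**Figure D2:**
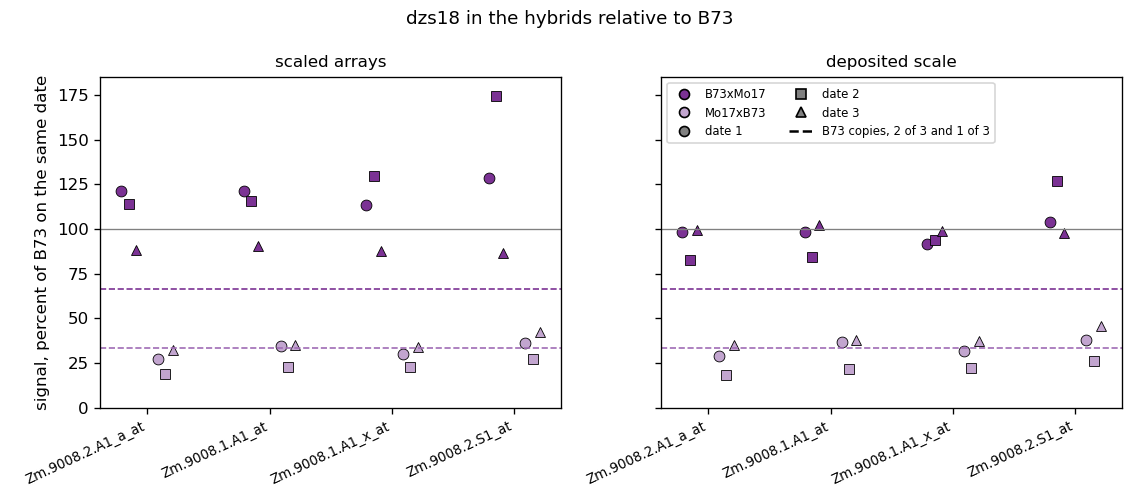
Signal of each hybrid as a percent of B73 on the same crossing date, for the 4 dzs18 probe sets, with scaled arrays on the left and the deposited scale on the right. Dashed lines mark 66.7% and 33.3%, the shares of B73 genome copies in B73xMo17 and Mo17xB73, and the solid line marks 100%; B73xMo17 points lie above the upper dashed line throughout, and Mo17xB73 points lie on both sides of the lower one.

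The dim arrays also lost less signal in dzs18 than elsewhere. Set against the B73xMo17 array of date 3 on the deposited scale, the median of the tested probe sets was lower by log2 -0.41 on date 1 and -0.44 on date 2. Among the 270 probe sets with a signal over 10000 it was -0.29 and -0.31. Zm.9008.2.A1_a_at was at 0.12 and -0.06, and Zm.9008.1.A1_at at 0.00 and -0.13. Zm.9008.2.S1_at, whose signal was 1.40% to 1.57% of the brightest probe set on the B73xMo17 arrays, was at -0.01 and -0.07, against -0.36 and -0.43 for the 1856 probe sets of a similar signal (200 to 400). So the dzs18 readings of dates 1 and 2 stood above that of date 3 relative to the rest of the array in a bright and a dim probe set alike. The part of array brightness in this was not tested.

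Over all 12 arrays, pairs of dzs18 probe sets correlated at r 0.914 to 0.998, mostly through the genotype means. After the genotype means were removed and the Mo17 arrays near the floor were left out, r was 0.843 to 0.980 over 9 arrays. With the Mo17 arrays kept, r after removal of the genotype means was 0.233 to 0.802 over 12 arrays. The points of each correlation share the RNA and the array. The lowest Mo17xB73 array was that of date 2 in all 4 probe sets, on the scaled and the deposited scale. The lowest B73xMo17 array in all 4 was that of date 3 after scaling and that of date 2 on the deposited scale.

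Crossing date had not entered the choice of the gene, so its effect was tested over all probe sets with limma's moderated F test, genotype included. The test called 17.9% of the probe sets tested (1916 of 10675), and no dzs18 probe set. The adjusted p was 0.836 for Zm.9008.2.A1_a_at, 0.941 for Zm.9008.1.A1_at, 0.473 for Zm.9008.1.A1_x_at and 0.133 for Zm.9008.2.S1_at. Zm.9008.2.S1_at passed with adjusted p 0.033 without the date 2 array of B73xMo17 and 0.032 without its date 3 array, 0.0318 without both dim arrays, and 0.0329 on the deposited scale.

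Other probe sets with little signal in Mo17 show what the hybrids usually held. In all, 99 probe sets were at least 16-fold higher in B73 than in Mo17, among them 3 of dzs18; Zm.9008.2.S1_at, at 8.40-fold, was not. The other 96 held a median of 69.1% of the B73 signal in B73xMo17 (quartiles 62.7% and 78.8%) and 33.7% in Mo17xB73 (quartiles 27.8% and 41.0%), near the copy shares of 66.7% and 33.3%. By the same ratio of geometric means, dzs18 held 106.9% to 108.7% in B73xMo17 and 25.6% to 30.1% in Mo17xB73. In B73xMo17, 5 of the 96 lay above all dzs18 probe sets and 91 below them. Some of the 96 share an identifier number or a gene, so they are not all separate transcripts. Zm.33.1.S1_at and Zm.33.1.S1_x_at, both among the 5, are an example. The log2 difference between the hybrids had a median of 0.98 in the 96, against 1.85 to 2.06 in dzs18, and 9 of the 96 exceeded all dzs18 probe sets.

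The place of dzs18 in this group depended on the date and the brightness. On date 3 alone, dzs18 held 87.6% to 90.8% of B73 in B73xMo17, where the median of the 96 was 70.8% and 11 lay higher, and 32.3% to 34.9% in Mo17xB73, where the median was 34.8%. The hybrids then differed by log2 1.36 to 1.45 in dzs18, against a median of 1.01, and 22 of the 96 differed by more. On the deposited scale, dzs18 held 93.3% to 94.9% of B73 in B73xMo17, against a median of 60.3%. Only 9 of the 96 had a B73 signal over 5000, as the 3 dzs18 probe sets do. These 9 held a median of 90.9% in B73xMo17 (range 61.0% to 112%) and 40.4% in Mo17xB73, so the excess of dzs18 in B73xMo17 is within the range of the bright members, among which the histone gene his2b5 alone has a gene name here.

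**Figure D3:**
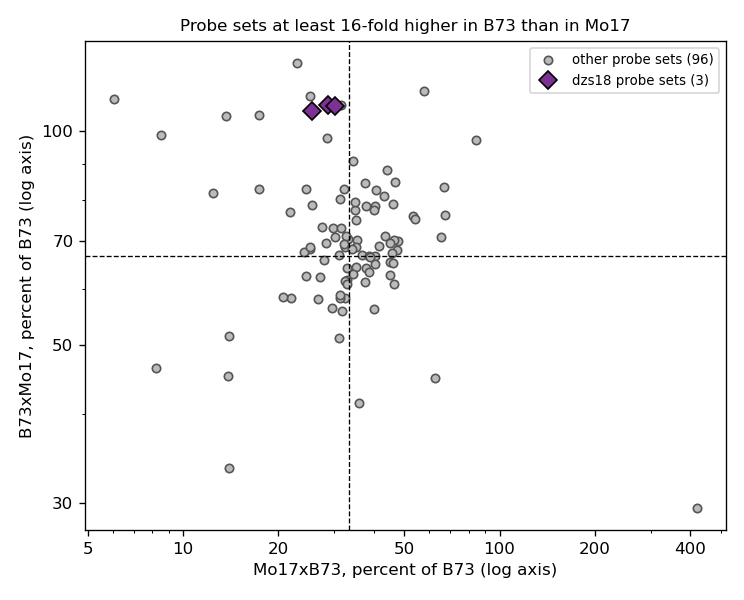
Signal in the 2 hybrids as a percent of B73 (log axes) for the 99 probe sets at least 16-fold higher in B73 than in Mo17, with the 3 dzs18 probe sets as diamonds; dashed lines mark 33.3% and 66.7%. Most points lie near the crossing of the lines, and dzs18 lies above it, at 106.9% to 108.7% in B73xMo17 and 25.6% to 30.1% in Mo17xB73.

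The remaining zeins were tested with limma over all probe sets, the brightest probe set of each gene standing for it. B73 was higher than Mo17 in 6 of the 7 and lower in none, where the test called 53.5% of all probe sets, 27.3% higher and 26.2% lower. Their median log2 difference was 2.40, against 0.01 over all tested probe sets. The 19- and 22-kDa alpha zeins, the bulk of the zein fraction, were among them: z1D_2 differed by 3.83 ± 0.77 (SE; adjusted p 0.00111), z1C2 by 3.63 ± 0.77 (adjusted p 0.00159) and z1C1_20 by 2.40 ± 0.59 (adjusted p 0.00421). The alpha zein z1C1_12 differed by 4.29 ± 0.44 (adjusted p 3.83e-06), a lower bound, with 1 Mo17 array at the floor and the others, at 19.9 and 16.2, close to it. The 50-kDa gamma zein gz50 differed by 2.32 ± 0.37 (adjusted p 0.000163).

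The alpha zein z1C1_4 differed by 1.28 ± 0.46 (adjusted p 0.032), a call that was lost, with adjusted p 0.0616 to 0.102, when any 1 B73 array or the Mo17 array of date 2 was left out. The 27-kDa gamma zein gz27 read 10025 in B73 and 9349.6 in Mo17 and was not called (log2 0.10 ± 0.08, adjusted p 0.334), and a further probe set of it was lower in B73 (-0.64, adjusted p 0.00988). The alpha zeins belong to a family of near-identical copies, so a probe set can take signal from several of them. No probe set is annotated to another delta zein gene.

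Between the hybrids, 2 of the 7 zeins were higher in B73xMo17 and none was lower, where the test called 31.3% of all probe sets, 15.4% higher and 15.9% lower. These were z1C1_12, at 1.45 ± 0.44 (SE; adjusted p 0.0255), and gz50, at 1.06 ± 0.37 (adjusted p 0.0435). Neither call held throughout, and none of the 7 was called without the dim B73xMo17 arrays. On the deposited scale, where 392 of all probe sets were called higher and 2772 lower, 2 were again called. These were z1C1_12 (adjusted p 0.0374) and z1C2 (0.0467), and gz50 was not called (0.075). After scaling, the gz50 call was lost when any B73xMo17 array, any B73 array or the date 2 array of Mo17xB73 was left out (adjusted p 0.0525 to 0.180). That of z1C1_12 was lost without the date 2 or date 3 array of either hybrid (adjusted p 0.058 to 0.0892). With crossing date as a block, 5 of the 7 passed. The share of all probe sets called with the block is not given here. Passing in addition were z1C1_20 (adjusted p 0.0271), z1D_2 (0.0162) and z1C2 (0.00431). Without the block these 3 had adjusted p 0.119, 0.0865 and 0.0585, and each passed without the Mo17 array of date 2 (0.0276, 0.0163 and 0.0309), as did z1C2 without the Mo17xB73 array of date 1 (0.0183) and gz27 without the B73xMo17 array of date 3 (0.00377).

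Some zeins were low on 1 date in 2 genotypes. In Mo17xB73, z1D_2 read 7404, 1157 and 5841 on dates 1, 2 and 3, and z1C1_20 read 8461, 1960 and 6302. In Mo17, z1D_2 read 2124, 217 and 1846, and z1C1_20 read 3981, 699 and 3519. Date 2 was thus the low date of both genes in both genotypes with a Mo17 mother. This pattern was read from the arrays, and a drop limited to these genotypes was not tested. In B73, z1D_2 read 14795, 12050 and 13870, and in B73xMo17 it read 13291, 12612 and 13967, so this gene had no drop of that size with a B73 mother, although z1C2 read 3163, 1137 and 1653 in B73. The dzs18 signal of Mo17xB73 on date 2 was also the lowest of its 3, at 3237 against 4762 and 5343. In Mo17, date 2 was the highest in Zm.9008.2.A1_a_at, at 26.3 against the floor on the other dates, and in Zm.9008.1.A1_at, at 96.8 against 55.8 and 88.5. It was between the other dates in Zm.9008.1.A1_x_at and the lowest in Zm.9008.2.S1_at.

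**Figure D4:**
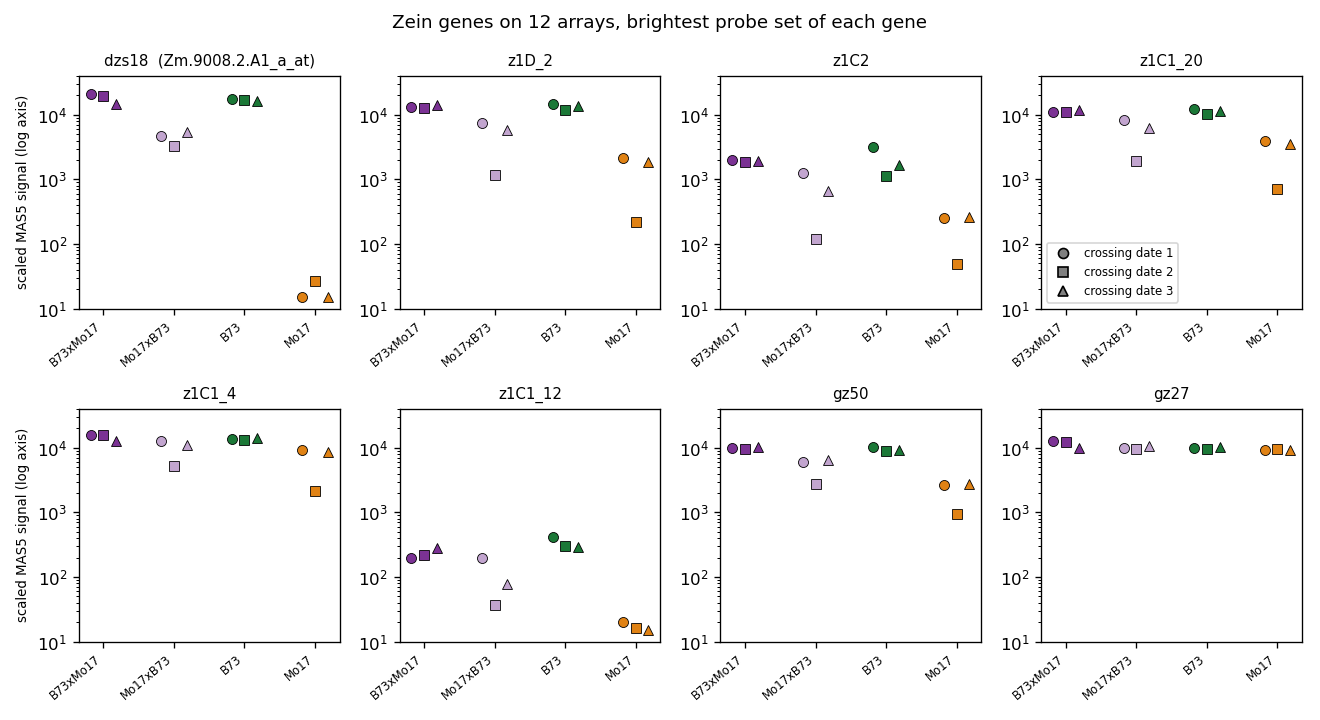
Scaled MAS5 signal (log axis) of dzs18 and the 7 other zein genes on the 12 arrays, by genotype, with marker shape for the crossing date. The date 2 squares of Mo17xB73 and Mo17 sit low in the alpha zeins z1D_2, z1C2, z1C1_20 and z1C1_4 and in gz50, while gz27 differs little between genotypes and only dzs18 falls to the floor in Mo17 on more than 1 array.

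The transcription factors that act on zein promoters differed between the inbreds as well. Opaque2 (o2) and its heterodimer partners ohp1 and ohp2 are bZIP factors, PBF is the Dof factor that binds the prolamin box, and Nkd1 is a zinc-finger factor of endosperm development. B73 was higher than Mo17 in 4 of these 5 and lower in 1, where 53.5% of all probe sets were called in either direction. Opaque2 read 3805, 3927 and 6619 in B73, against 328, 347 and 336 in Mo17 (log2 3.78 ± 0.24 SE, adjusted p 3.68e-08), while a further o2 probe set was not called (0.44 ± 0.25, adjusted p 0.154). For ohp1 the difference was 1.76 ± 0.08 (adjusted p 2.02e-09) and for PBF 0.48 ± 0.08 (adjusted p 0.000226).

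Nkd1 was higher by 0.26 ± 0.09 (adjusted p 0.0232) and ohp2 lower by log2 -0.24 ± 0.09 (adjusted p 0.0446). The Nkd1 call was lost without the B73 arrays of dates 1 or 2 or the Mo17 arrays of dates 1 or 3 (adjusted p 0.0503 to 0.0991). The ohp2 call was lost in 8 of the 12 fits that leave out 1 array, namely any Mo17 array, the B73 arrays of dates 2 and 3, the Mo17xB73 arrays of dates 1 and 3 and the B73xMo17 array of date 1 (adjusted p 0.053 to 0.126). On the deposited scale 3 of the 5 were higher and none lower, where 1628 of all probe sets were called higher and 3046 lower.

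Between the hybrids, o2 (0.81 ± 0.24, adjusted p 0.0228), ohp1 (0.44 ± 0.08, adjusted p 0.00195) and PBF (0.31 ± 0.08, adjusted p 0.0116) were higher in B73xMo17, and ohp2 was lower (-0.27 ± 0.09, adjusted p 0.0433), where 31.3% of all probe sets were called. Nkd1 was not called (0.22 ± 0.09, adjusted p 0.0803), though it passed without the Mo17xB73 array of date 1 (adjusted p 0.0333) and with crossing date as a block (adjusted p 0.0185). On the deposited scale none of the 5 was higher and ohp2 alone was lower. Of all probe sets, 392 were called higher and 2772 lower on that scale, against 1644 and 1692 after scaling. The o2 call was lost without the date 2 or 3 array of B73xMo17 or the date 1 or 2 array of Mo17xB73 (adjusted p 0.0594 to 0.0883), and the PBF call without the date 2 array of Mo17xB73 (adjusted p 0.0546). The ohp2 call was lost in 9 of 12 such fits (adjusted p 0.0535 to 0.153), those without any Mo17xB73 or Mo17 array, the date 1 or 2 array of B73xMo17 or the date 2 array of B73. The call of ohp1 held in all 12.

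Of 6 tested members of a list of sulfur and methionine supply genes, none was higher and 3 were lower in B73, where 27.3% of all probe sets were called higher and 26.2% lower: the serine acetyltransferase genes sat3 (log2 -0.96 ± 0.12 SE, adjusted p 1.99e-05) and sat2 (-0.93 ± 0.24, adjusted p 0.00584), and cgs1 for cystathionine gamma-synthase (-0.31 ± 0.11, adjusted p 0.034). The cgs1 call was lost without the B73 array of date 3 or the Mo17 arrays of dates 2 or 3 (adjusted p up to 0.142). Between the hybrids, 1 was higher in B73xMo17, the aspartate kinase gene akh2 (0.82 ± 0.16, adjusted p 0.00294), and 3 were lower, sat3 (adjusted p 0.00206), cgs1 (0.0435) and sir (0.0386). In that comparison 15.4% of all probe sets were called higher and 15.9% lower. The cgs1 call there was lost without the B73xMo17 arrays of dates 2 or 3, the Mo17xB73 arrays of dates 1 or 2, the B73 array of date 2, or the Mo17 arrays of dates 2 or 3 (adjusted p up to 0.169).

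Of 12 chaperones and disulfide isomerases of the endoplasmic reticulum, where zeins are folded, none was higher and 3 were lower in B73, close to the 26.2% of all probe sets called lower, with pdi5 at -2.27 ± 0.16 (SE; adjusted p 1.25e-07), pdi4 at -1.23 ± 0.10 (adjusted p 4.59e-07) and pdi8 at 1110.3 in B73 against 2222 in Mo17 (adjusted p 0.000775). Between the hybrids pdi4, pdi5 and pdi6 were lower in B73xMo17 and none was higher, where 15.4% of all probe sets were called higher and 15.9% lower. The pdi5 call there was lost without the B73xMo17 array of date 1 or the Mo17xB73 arrays of dates 2 or 3 (adjusted p up to 0.0962). With crossing date as a block, 7 were lower and 1 higher between the inbreds and 5 were lower between the hybrids. The share of all probe sets called with the block is not given here. FL1, whose product sits in the protein body membrane, was not called in either comparison (adjusted p 0.273 and 0.219) but passed in both with the block.

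Of 3 other storage protein genes tested (4 annotated), leg1 (0.19 ± 0.07) and mlg3 (2.20 ± 0.42) were higher and glb1 (-0.68 ± 0.15) lower in B73. Of all probe sets, 27.3% were called higher and 26.2% lower. Both leg1 and mlg3 were also higher in B73xMo17 than in Mo17xB73, where 15.4% of all probe sets were called higher and 15.9% lower. For leg1 the sign turned under quantile normalization in both comparisons (-0.06 and -0.01) and, between the hybrids, on the deposited scale (-0.02). The leg1 call was lost between the inbreds without the B73 arrays of dates 1 or 3 or the Mo17 arrays of dates 2 or 3 (adjusted p up to 0.0955). Between the hybrids, the calls of leg1 and mlg3 were lost without the B73xMo17 arrays of dates 1 or 2 or the Mo17xB73 arrays of dates 2 or 3 (adjusted p up to 0.0942 and 0.0888).

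Lists of markers of other kernel tissues were tested in the same way. Of all probe sets, 27.3% were called higher in B73 than in Mo17 and 26.2% lower. Between the hybrids, 15.4% were called higher in B73xMo17 and 15.9% lower. Of 9 basal transfer layer markers tested (10 annotated), none was higher. Those lower in B73 and in B73xMo17 were 2, bap-3a and bap1-b, a count near the shares of all probe sets. The median log2 difference of the 9 was -1.36 between the inbreds and -1.68 between the hybrids. Over all tested probe sets it was 0.01 in both comparisons. With crossing date as a block, for which the share of all probe sets is not given here, 7 and 9 of these markers were lower. Their summed signal ran from 1965 to 9069 in B73xMo17 arrays, against 7998 to 25261 in Mo17xB73 arrays, and from 1874 to 13884 in B73, against 5942 to 22795 in Mo17. Both embryo surrounding region markers, ESR1 and ESR1c1, were lower in B73 and in B73xMo17, with summed signal of 138 to 354 in B73xMo17 and 558 to 1002 in Mo17xB73. Of 5 genes tested from a list of aleurone and anthocyanin genes, dek1, a2 and fht1 were lower in B73, and fht1 in B73xMo17. Of 3 embryo markers tested mlg3 was higher and glb1 lower in B73, and both are the storage protein genes named above. The embryo marker lec1 was at the floor on all 12 arrays. Of 2 green tissue markers tested Ppdk1, which endosperm also expresses, was higher in B73 and B73xMo17, with the call between the hybrids lost on the deposited scale (adjusted p 0.0509) and without the dim B73xMo17 arrays (0.0528), and pep1 was at the floor on all 12 arrays. Some of these calls rest on single arrays. Between the inbreds, bap1-b lost its call without the B73 arrays of dates 2 or 3 or the Mo17 arrays of dates 1 or 3 (adjusted p up to 0.112). Between the hybrids, bap1-b lost it without the B73xMo17 array of date 2 or the Mo17xB73 arrays of dates 1 or 3 (adjusted p up to 0.149), ESR1 without any Mo17xB73 array or the B73xMo17 arrays of dates 1 or 2 (up to 0.119), and ESR1c1 without the B73xMo17 array of date 2 (0.0524). The part of these tissues in the dzs18 levels was not tested.

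Across 12 arrays, the named genes whose log2 signal was most like that of Zm.9008.2.A1_a_at had r 0.980 to 0.995, where the median over 656 genes was 0.119 and 25 exceeded 0.9. They were PDC (pdc2, pyruvate decarboxylase; r 0.995), abp4 (auxin-binding protein), MRP2, In2-1, HMT-2 (homocysteine methyltransferase) and pip2-5 (an aquaporin). In the probe sets compared, all 6 read low in Mo17, with PDC at 59.0 against 2167 in B73, and In2-1 at the floor on all Mo17 arrays. Between the hybrids they differed by less than dzs18, with log2 differences of 0.20 to 1.15. Over the 4 genotype means alone their r was 0.988 to 0.999. With the genotype means removed it was -0.264 (pip2-5) to 0.438 (MRP2), and 0.185 for PDC. The ranking thus mostly follows the genotype differences by which dzs18 was chosen. Further probe sets of PDC ran the other way, at r -0.573 and -0.341. They read 22.4 in B73 against 1814 in Mo17, and 1061 against 1266, so PDC was not low in Mo17 by every probe set. Another PDC probe set, below the filter, read 17.6 in B73 and 16.1 in Mo17 (r 0.332).

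After the genotype means were removed, the genes most like dzs18 over the 12 arrays were mbd108 (r 0.748), bt2 (r 0.722), RPS21 (r 0.713), pdi11 (r 0.704), MNB1a (r 0.674) and inra1(tmp), also listed as PIP1-1 (r 0.643). The median over the 656 genes was -0.007. By this measure the other dzs18 probe sets themselves stood at r 0.802 (Zm.9008.1.A1_at), 0.319 (Zm.9008.1.A1_x_at) and 0.233 (Zm.9008.2.S1_at), so the last 2 were less like Zm.9008.2.A1_a_at than the genes named here. Of these, bt2 encodes the small subunit of the ADP-glucose pyrophosphorylase of starch synthesis, and it read 11544 in B73xMo17, 9223 in Mo17xB73, 10868 in B73 and 9114 in Mo17. These correlations rest on small deviations between arrays that share RNA and array brightness, with the Mo17 readings of dzs18 near the floor.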

How the data were processed

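The deposited values are intensity: MAS5 signal on a linear scale, 1 value per probe set and array, per the submitters' processing notes. No source used here gives the scaling target, the detection calls or the probe strand. Total RNA was labelled with biotin in one amplification cycle, per the labels.

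Of 17734 probe sets, 179 controls were left out (113 spike-in and 66 reporter). Arrays were scaled to equal medians of the brighter probe sets. A floor stood at the pooled 20th percentile (15.1), and floored signal was taken to log2. Probe sets with a mean above the pooled 40th percentile (73.2) were tested, 10675 of 17555. R 4.3.3 with limma 3.58.1 fitted 4 genotype means to 12 arrays (8 residual degrees of freedom) and moderated the variances along an intensity trend. All tests are two-sided, with a call at p under 0.05 after Benjamini-Hochberg adjustment. Errors of dzs18 are SDs over dates. The procedure was tested on simulated data.

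Of 1452 probe sets with 1 gene, 1377 matched RefSeq (Zm-B73-REFERENCE-NAM-5.0). Named genes were all zeins and zein regulators, up to 3 called members of each other list with the smallest adjusted p between the inbreds, and the 6 most like dzs18 by each correlation. Members named only between the hybrids were picked with their values in view. The gene, the lists and the tests were chosen with earlier results of these data known. Wrongly matched symbols were removed by gene ID. Promoter and protein sequences were not used here.

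After genotype means were removed, arrays of the same replicate number correlated at mean r 0.390, 0.378 and 0.426 (every pair at least 0.247), and others at -0.199, so the replicate numbers, which the labels tie to crossing dates, pair the arrays. Alternatives covered the scaling, floor, filter, trend, date block, parental weights and left-out arrays.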

Additional observations from a re-analysis of the deposited data

How the results depend on the processing

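For dzs18, the log2 differences between genotypes kept their direction except B73xMo17 minus B73, which is near 0. In Zm.9008.2.A1_a_at this was -0.22 without the dim B73xMo17 arrays 1 and 2 and -0.18 on crossing date 3 alone. Its distance from the weighted parents was 0.40 and 0.41 in the same settings, and the gap between the hybrids was 1.45 on date 3 alone. The floor sets the size of the differences from Mo17: with a floor at the 10th percentile B73 minus Mo17 was 10.62 and B73xMo17 minus Mo17 was 10.72, and with no floor 10.80 and 10.90, with Mo17xB73 minus Mo17 at 8.84. With parents weighted 1 to 1, B73xMo17 stood at 1.09 and Mo17xB73 at -0.97. In Zm.9008.1.A1_at the distance of Mo17xB73 from its weighted parents changed sign with 1 array left out. It ran from -0.267 to 0.0457, the highest without the Mo17xB73 array of date 2.

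With the replicate block (crossing date), 5 zeins other than dzs18 were called higher in B73xMo17 than in Mo17xB73, against 2 without it. The block changed no count for the inbred zeins or regulators. The share of all probe sets called with the block is not given here. That zein count was 1 under quantile normalization, a filter at the 60th percentile or no trend, and 0 with no filter or without the dim arrays. Leaving out 1 array gave 0 to 5, the lowest without the B73xMo17 array of date 2 and the highest without the Mo17 array of date 2. Probe sets called between the hybrids numbered 3336, 1632 without the dim arrays, 1488 without crossing date 2, and 2194 to 3335 with 1 array left out, the lowest without Mo17xB73 array 2 (higher 1088 to 1672, lower 1106 to 1721). Deposited values gave 3164 (392 higher, 2772 lower), against 1644 and 1692 scaled, and 4674 between the inbreds (1628 and 3046), against 2918 and 2796. The date test called 1916 probe sets, 696 deposited, 880 with no filter, 906 without the dim arrays, and 1097 to 1913 with 1 array left out.

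With 1 array left out, Zm.9008.2.S1_at ran from 2.87 to 3.29 for B73 minus Mo17, from -1.80 to -1.18 for Mo17xB73 minus B73, from 1.28 to 1.89 for Mo17xB73 minus Mo17, and its date p from 0.0321 to 0.384. The sign of leg1 turned between the hybrids on deposited values (-0.0189) and under quantile normalization (-0.00945), and between the inbreds under quantile normalization (-0.0566). Of the named list genes, 22 of 28 calls between the inbreds and 6 of 18 between the hybrids held with any 1 array left out. The alternatives without crossing date 2 and on date 3 alone were chosen after seeing the data. The cause of these changes was not tested.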
